A study of Mus musculus with 12 samples.

Results

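The comparison described here is between livers of mice that lack Met in hepatocytes and livers of control mice, both taken after an injection of hepatocyte growth factor (HGF). It rests on 6 of the 12 arrays of the series, chosen by their sample titles alone: 3 knockout livers and 3 control livers, where the protocol gives 3 animals per group. Control mice (c-MetloxP/loxP) carried loxP-flanked Met alleles. Knockout mice (c-MetDhepa) carried the same alleles and either the Alfp-Cre transgene, driven by regulatory elements of the albumin and alpha-fetoprotein genes and active from embryonic life, or the Alb-Cre transgene, which is driven by the albumin promoter and acts from 2 weeks after birth. The labels do not say which Cre transgene each knockout array stands for, nor the strain, sex or age of the mice. All 6 mice received 2 µg recombinant mouse HGF, injected intraperitoneally, and the livers were taken 2 h later. The other 6 arrays, 3 control and 3 knockout livers labelled without HGF, share no array with these and are used for the same contrast in a second set of animals. The protocol does not settle whether those mice had been injected with sodium chloride.

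HGF is a growth factor made by non-parenchymal cells, and Met is its receptor tyrosine kinase. Binding of HGF makes the receptor phosphorylate itself and recruit adaptors such as Gab1 and Grb2, which pass the signal to the ERK, PI3-kinase and STAT3 pathways. In liver this axis is known for driving hepatocyte growth, survival and motility, and its first transcriptional answer is a burst of immediate early genes. The comparison asks which liver transcripts differ when hepatocytes cannot receive the HGF signal through Met.

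Values are log2(intensity + 1), so a difference of 1 is a doubling of intensity + 1, and values under 4 are close to background. The 6 arrays were alike in their overall distribution, with a median intensity of 6.85 to 6.95 and 37.9% to 38.2% of probe sets at or above the log2 value of 4. Of 16475 probe sets, 6348 reached that value on at least 3 of the 6 arrays and were tested. The tissue label held: albumin (Alb) lay at 14.48 to 14.53 on all 6 arrays, and 15 of the 15 hepatocyte markers on the array passed the filter, with a median difference of -0.01. None of the 8 bile duct markers on the array passed it. The knockouts were array numbers 8, 10 and 12 and the controls numbers 2, 6 and 4, so genotype and array number cannot be told apart. The labels call the mice separate animals, and p-values measure the spread between these animals.

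The 3 knockout arrays did not resemble each other. Pearson's r with the 3 control arrays across tested probe sets was 0.95 to 0.97 for knockout replicate 1, 0.912 to 0.940 for replicate 2 and 0.98 to 0.982 for replicate 3, against 0.975 to 0.989 among the controls. In replicate 2, 613 probe sets differed at least 2-fold from the control mean, compared with 328 in replicate 1 and 116 in replicate 3. Replicate 3 thus lay as close to the controls as these lay to each other, and replicate 2 lay farthest away. Across 6683 probe sets, both arrays labelled knockout replicate 2 were nearer to the controls of the other treatment than to those of their own. The one labelled with HGF correlated at 0.915 to 0.941 with the controls given HGF and at 0.976 to 0.98 with those without, while the one labelled without HGF correlated at 0.983 to 0.987 and 0.936 to 0.947. Knockout replicate 1 after HGF was likewise nearer to the controls without HGF, at 0.98 to 0.984 against 0.953 to 0.971, and replicate 3 nearer to those given HGF, at 0.981 to 0.983 against 0.936 to 0.948. Igfbp1, a gene for an insulin-like growth factor binding protein, was at 13.65 in knockout replicate 2 without HGF, at 10.19 and 10.46 on the other knockout arrays without HGF, and at 10.28 in replicate 2 with HGF. Whether these 2 arrays were exchanged cannot be told from the labels, and an exchange would change what every replicate 2 value and both contrasts mean. All labels were followed as deposited, and the main lists are given without replicate 2 as well.

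Met transcript itself did not separate the groups. Its probe set (Entrez Gene 17295) read 6.59, 6.78 and 7.02 in control replicates 1 to 3 and 6.61, 7.40 and 6.29 in knockout replicates 1 to 3. The difference was -0.03 (SE 0.30), and the groups overlapped fully. Which part of the transcript these probes cover is not known here, so the values check nothing about the deletion. The ligand gene Hgf was below the filter, between 3.24 and 3.92. Of 10 tested genes of the HGF and Met pathway, 1 was higher and 1 was lower on all 3 knockout arrays, near the 8.92% and 6.22% of all probe sets for which this held. Spint2, an inhibitor of HGF-activating proteases, read 8.57, 8.60 and 8.75 in the controls and 8.83, 9.0 and 8.90 in the knockouts, and was the higher one. Stat3, a transcription factor downstream of Met and of cytokine receptors, read 9.74, 9.56 and 9.50 against 8.98, 8.05 and 9.46 and was the lower one. The adaptors Gab1, Grb2 and Shc1 overlapped between the groups, as did Hgfac and Hpn, which encode proteases that activate HGF.

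A single gene was called, Rad51b. Rad51b encodes a protein used in DNA repair by homologous recombination. Its probe set read 3.24, 2.67 and 3.02 in the controls, which is background, and 6.52, 6.46 and 6.65 in the knockouts. The groups were separated by more than 3 log2 units with almost no spread inside the knockout group. The difference was 3.57 (SE 0.17, 11.9-fold, limma adjusted p = 0.00372). One call in 6348 is 0.0158% of the probe sets tested, and the next smallest limma adjusted p was 0.461. Without HGF the same contrast gave 3.45 (SE 0.27, limma adjusted p = 0.0200, and 0.00655 to 0.203 with single arrays left out), with controls at 2.82, 3.09 and 3.39 and knockouts at 6.33, 6.21 and 7.10. All 6 knockout livers of the series were thus above all 6 control livers for this gene. The difference between the 2 contrasts was 0.12 (SE 0.34, limma adjusted p = 0.936). The call was lost when control replicate 3 was left out (adjusted p = 0.0688) and when knockout replicate 1 was left out (0.0664), with differences of 3.59 and 3.58, and with the replicate number as a fixed block (0.115), while it held without knockout replicate 2 (0.0331). Of 10 protein-coding genes on each side of Rad51b on chromosome 12 in the RefSeq order, 16 were on the array and 6 were tested. Exd2 was the only one of these 6 whose groups did not overlap, against 15.1% of all probe sets, with a difference of 0.21 (SE 0.11).

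Below the threshold, the data were read by whether all 3 knockout arrays lay on the same side of all 3 controls. This held for 961 probe sets, 15.1% of those tested: 566 (8.92%) were higher in the knockouts and 395 (6.22%) were lower. A probe set that passed the filter through the 3 arrays of 1 group alone is separated by construction. Such probe sets were not counted apart in any list. Rad51b is one of them, and its call also held with no filter. None of the genes described from here on reached an adjusted p under 0.05 in the comparison of all 6 arrays, where 521 probe sets, 255 higher (4.02%) and 266 lower (4.19%), had an unadjusted p under 0.05 by limma. Large differences leaned to the lower side, with 46 probe sets at least 2-fold higher and 184 at least 2-fold lower. Of these, 26 of the higher and 65 of the lower had groups that did not overlap. Knockout replicates 1 to 3 had 147, 277 and 18 probe sets more than 1 log2 unit below the control range. Above it by more than 1 they had 39, 103 and 17. The median difference over all tested probe sets was 0.03, with 56.1% above 0 and 43.9% below. With array weights in limma, 54 genes were called, 31 (0.488%) higher and 23 (0.362%) lower, all with groups that did not overlap. These calls rest mostly on knockout replicate 1, whose weight was 3.90, against 0.498 for replicate 2 and 0.415 for replicate 3. Control replicates 1 to 3 had weights of 0.413, 1.31 and 2.29. The fit of the weights stopped before it converged.

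**Figure D1:**
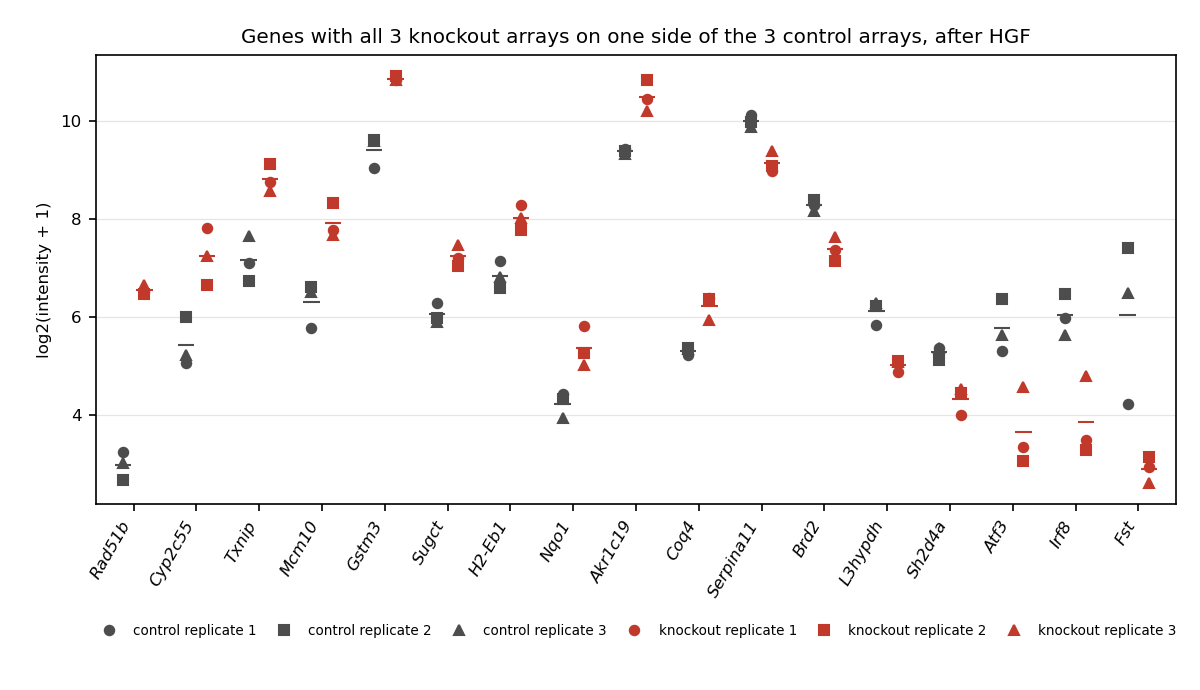
Values of log2(intensity + 1) for 17 genes whose knockout arrays (red) lay on one side of the control arrays (grey) after HGF, with a marker for each replicate and a line at each group mean (n = 3). Rad51b shows the widest gap, from 3.24 in the highest control to 6.46 in the lowest knockout.

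Genes for phase 2 transferases were shifted by similar amounts in all 3 knockout arrays. These enzymes conjugate drugs, bile pigments and lipid peroxides to glutathione, glucuronic acid or sulfate. Of 26 tested members, 24 had a positive difference and 16 were higher on all 3 knockout arrays, against 8.92% of all probe sets, while 0 were lower on all 3, against 6.22%. The median difference was 0.29, and the median distance from the control mean was 0.25, 0.38 and 0.27 in knockout replicates 1 to 3. The count of 16 stayed 16 without knockout replicate 2 (12.6% of all probe sets higher) and was 18 without replicate 3 (24.2%). It was 19, 17 and 18 without control replicates 1, 2 and 3 (14.9%, 12.9% and 14.2%) and 17 without knockout replicate 1 (10.8%). Knockout replicates 1 to 3 lay above the control range for 18, 21 and 18 of the 26 genes, against 35.4%, 40% and 21% of all probe sets. The differences were thus small, and similar in the array closest to the controls and in the one farthest from them.

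Gstm3, a mu-class glutathione transferase, had the largest difference of the list. It read 9.04, 9.62 and 9.59 in the controls and 10.83, 10.93 and 10.84 in the knockouts, a difference of 1.45 (SE 0.18, limma adjusted p = 0.461). The knockout values lay within 0.10 of each other and near the 10.83 of the controls without HGF. The mu-class genes Gstm6 and Gstm2 differed by 0.84 (SE 0.17) and 0.76 (SE 0.28), and the alpha-class genes Gsta2 and Gsta4 by 0.87 (SE 0.23) and 0.49 (SE 0.11). The theta-class gene Gstt3 read 7.11, 7.12 and 7.20 in the controls and 8.10, 7.75 and 7.99 in the knockouts. Sult1b1, a sulfotransferase for phenols and thyroid hormone, read 7.12, 7.22 and 7.47 against 8.07, 8.12 and 8.14. Both genes kept clear of the controls in every knockout array, with differences of 0.81 (SE 0.13) and 0.84 (SE 0.13). The glucuronosyltransferases differed less: Ugt2b5 and Ugt2b1 were higher on all 3 knockout arrays by 0.23 and 0.25, while Ugt2b36, Ugt2b34, Ugt2a3 and Ugt3a2 overlapped. Many of these genes have close copies, and how far the probes tell the copies apart was not tested.

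**Figure D2:**
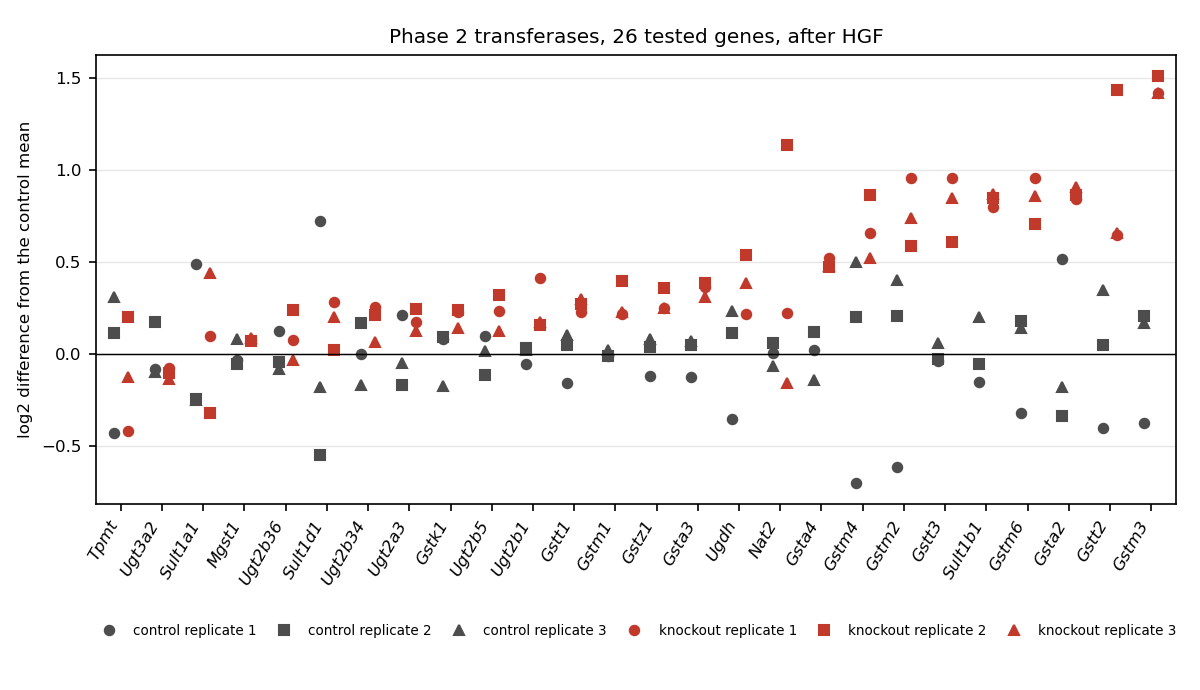
Distance from the control mean on the log2 scale for each of the 6 arrays and each of the 26 tested phase 2 transferase genes, ordered by their difference. Knockout arrays (red) lie above 0 for most genes, up to Gstm3 with a difference of 1.45, and 16 genes show no overlap with the controls (grey).

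Without HGF the same list had a median difference of 0.05, and 7 of the 26 members were higher and 2 lower on all 3 knockout arrays, against 6.43% and 12.5% of all probe sets there. For 6 of the 26 genes the groups were separated in the same direction in both sets of animals, against 76 of all 6172 probe sets tested in both. The difference between the 2 contrasts had an unadjusted p under 0.05 for 4 of the 26 genes and an adjusted p under 0.05 for 0 of them by limma, with a smallest adjusted p of 0.265. Without the array labelled knockout replicate 2 in that set, 16 of the 26 members were higher and 3 lower, against 21.8% and 22.0% of all probe sets, with a median of 0.18. The list therefore cannot be called particular to the HGF-treated animals.

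Some other genes of drug and oxidant metabolism were also higher on all 3 knockout arrays. Nqo1, a quinone reductase, read 4.42, 4.33 and 3.93 in the controls and 5.82, 5.26 and 5.02 in the knockouts, a difference of 1.14 (SE 0.25). Akr1c19, an aldo-keto reductase, read 9.43, 9.39 and 9.33 against 10.45, 10.84 and 10.22, a difference of 1.12 (SE 0.18). Cyp2c55, a cytochrome P450, read 5.06, 5.99 and 5.22 against 7.82, 6.65 and 7.24, a difference of 1.81 (SE 0.37), and differed by -1.39 without HGF. In each case the lowest knockout lay above the highest control. Of 20 tested genes of xenobiotic metabolism, 7 were higher and 1 was lower on all 3 knockout arrays, against 8.92% and 6.22% of all probe sets. The median difference was 0.13, and the median distance from the control mean was 0.26, 0.15 and 0.05 in knockout replicates 1 to 3. The single lower member was Ahr, the aryl hydrocarbon receptor, with a difference of -0.27 (SE 0.12). Of 18 NRF2-linked antioxidant genes, 4 were higher and 1 was lower, against 8.92% and 6.22% of all probe sets. The higher ones were Nqo1, Gstm3, Gsta2 and Gstm1, of which Gstm3 and Gsta2 were already described with the phase 2 transferases. The lower one was the regulator Nfe2l2 itself, with a difference of -0.61 (SE 0.25). The median over that list was 0.07, so the higher members were its conjugating and reducing enzymes and not the list as a whole.

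Markers of pericentral hepatocytes, the cells around the central vein, overlapped in part with these enzymes. Of 14 tested markers, 7 were higher on all 3 knockout arrays and 1 was lower, against 8.92% and 6.22% of all probe sets. The median difference was 0.32. Without knockout replicate 2, 10 were higher and 1 was lower, against 12.6% and 9.77%, with a median of 0.24. Slc1a2, a glutamate transporter, read 6.60, 5.38 and 5.53 in the controls and 7.6, 6.72 and 7.26 in the knockouts, a difference of 1.36 (SE 0.38). It was not called after HGF (limma adjusted p = 0.570), but it was called without HGF, where the difference was 1.43 (SE 0.16, limma adjusted p = 0.0468). Lect2, a secreted hepatokine, differed by 0.70 (SE 0.17) and Glul, which encodes glutamine synthetase, by 0.23 (SE 0.11), with no overlap in either. Of 12 periportal markers, 0 were separated in either direction after HGF, against 15.1% of all probe sets, and the median difference was -0.05. Without HGF, 6 of 16 pericentral markers were higher and 0 lower, against 6.43% and 12.5% of all probe sets, with a median of 0.22. Of the 14 pericentral markers tested in both sets, 4 were separated in the same direction in both, against 76 of all 6172 probe sets. Without replicate 2 in that set, 11 of 16 were higher, against 21.8%. Of the 12 periportal markers tested without HGF, 1 was higher and 6 were lower on all 3 knockout arrays, against 6.43% and 12.5% of all probe sets. The pericentral list therefore cannot be called particular to the HGF-treated animals. In whole liver, fewer cells of a type and less RNA per cell cannot be told apart.

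Targets of NF-kappaB, the transcription factor of inflammatory signalling, had large differences, on which the knockout arrays disagreed. All 20 tested genes had a negative difference, with a median of -2.24, and 9 were lower on all 3 knockout arrays, against 6.22% of all probe sets. The median distance from the control mean was -2.82 in knockout replicate 1, -4.07 in replicate 2 and -0.19 in replicate 3. In replicate 2, 20 of 20 genes lay below the lowest control and in replicate 1, 19 of 20, against 28.4% and 21.4% of all probe sets. In replicate 3, 9 of 20 did, against 28.6%. Set against the controls without HGF, replicate 2 lay at a median of -0.17, replicate 1 at 0.66 and replicate 3 at 3.61. Replicates 1 and 2 were therefore closer to the controls without HGF on this list, and replicate 3 was closer to the HGF-treated controls. With other single arrays left out, 10 of 20 were lower without control replicate 1 (11.7% of all probe sets), 9 without replicate 2 (8.4%), 14 without replicate 3 (10.6%) and 9 without knockout replicate 1 (9.69%). In the animals without HGF, all 10 tested members had a positive difference, with a median of 1.59. There, 2 were higher and 0 lower on all 3 knockout arrays, against 6.43% and 12.5% of all probe sets. With the array labelled knockout replicate 2 left out there, 7 were positive, with a median of 0.27. Then 2 were higher and 2 lower, against 21.8% and 22.0%.

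The chemokine gene Cxcl2, which encodes a neutrophil attractant, had the largest difference. It read 9.44, 11.11 and 9.38 in the controls and 2.66, 1.85 and 8.27 in the knockouts, a difference of -5.72 (SE 1.69, limma adjusted p = 0.570). Knockout replicates 1 and 2 were at background, and replicate 3 was below the lowest control but far above them. Tnfaip3, a ubiquitin-editing inhibitor of NF-kappaB, read 9.85, 10.82 and 9.67 against 3.74, 2.44 and 9.59, a difference of -4.85 (SE 1.80). Relb, an NF-kappaB subunit, read 7.44, 7.30 and 7.18 against 2.95, 2.51 and 7.08, a difference of -3.12 (SE 1.18). In both genes replicate 3 lay just under the lowest control, while replicates 1 and 2 were near background. Nfkbia, the inhibitor that NF-kappaB induces to switch itself off, read 11.10, 11.39 and 11.06 against 9.0, 8.91 and 10.81. The chemokine gene Cxcl10 read 12.06, 12.58 and 12.02 against 7.27, 3.62 and 12.17, and Cxcl1 read 11.76, 11.78 and 11.56 against 10.94, 7.26 and 11.58. Cxcl10 and Cxcl1 overlapped, because replicate 3 stood inside the control range. The monocyte attractant Ccl2 and the macrophage chemokine Ccl3 were lower on all 3 knockout arrays, with differences of -2.70 (SE 0.75) and -1.99 (SE 0.43). In Ccl3 all values were near background, at 4.05, 5.04 and 4.09 in the controls and 2.24, 1.80 and 3.17 in the knockouts. Ccl3 thus passed the filter through the controls alone, which fixed it as lower.

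**Figure D3:**
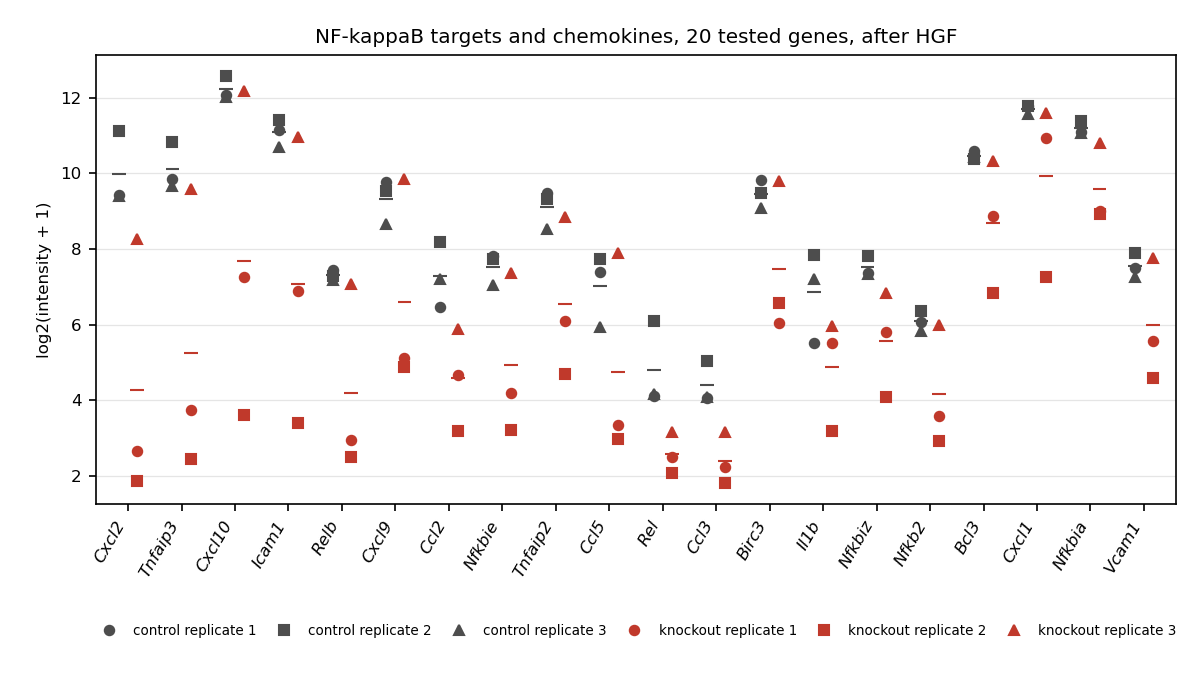
Values of log2(intensity + 1) on each of the 6 arrays for the 20 tested NF-kappaB targets and chemokines, with controls in grey, knockouts in red and a line at each group mean (n = 3). Knockout replicates 1 and 2 (circles and squares) lie far below the controls for most genes, while knockout replicate 3 (triangles) lies near or inside the control range.

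Leaving out knockout replicate 3 raised the number of called genes from 1 to 90, of which 12 (0.189%) were higher and 78 (1.23%) were lower, and 11 of the 20 NF-kappaB targets were among the lower ones by limma. Of the 90, 37 had groups that did not overlap when replicate 3 was included, and 50 of the lower ones had overlapped. Leaving out replicate 2 kept 1 call and 9 separated NF-kappaB targets (9.77% of all probe sets lower), with a median of -1.67. Among genes called only without replicate 3 was Tlr2, a receptor for bacterial lipopeptides, at 9.34, 9.37 and 9.31 in the controls and 3.86, 2.40 and 9.73 in the knockouts. Rnd1, a small GTPase that loosens the cytoskeleton, read 11.34, 11.31 and 10.81 against 5.26, 3.61 and 11.18. These genes describe a difference between the controls and 2 of the knockout livers, not all 3.

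The sequences upstream of the genes on this list are shown because its members moved together between the arrays. Promoter windows of 300 bases, from 250 before to 50 after the start, were read from RefSeq (GRCm38.p6) and searched on both strands for the NF-kappaB motif. Windows were matched by symbol for 15 of the 20 tested genes, and 9 of these genes had a match: Bcl3, Cxcl1, Cxcl10, Cxcl2, Nfkb2, Nfkbia, Nfkbie, Rel and Tnfaip3. Of all 32851 windows in the table, 4.51% held a match, against 11 of the 18 windows of these genes. The list was chosen as one of NF-kappaB targets, so this share follows from its choice and is no result of these arrays. A match was held by 1 of 23 windows of tested acute phase genes and 2 of 22 of interferon targets. It was held by 3 of 23 windows of immediate early genes and 1 of 10 of core clock genes. Windows of 5 of the 9 genes with a match follow, each 5′ to 3′ on the strand of the gene. The letters of the motif are in capitals.
Cxcl2 (chr5:90903649-90903948, plus strand): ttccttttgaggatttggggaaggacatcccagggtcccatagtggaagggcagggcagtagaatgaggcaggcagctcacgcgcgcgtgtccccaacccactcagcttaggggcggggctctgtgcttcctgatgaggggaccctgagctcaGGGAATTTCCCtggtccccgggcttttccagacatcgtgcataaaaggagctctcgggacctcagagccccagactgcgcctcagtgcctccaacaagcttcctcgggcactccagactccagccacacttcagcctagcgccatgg
Tnfaip3 (chr10:19015361-19015660, minus strand): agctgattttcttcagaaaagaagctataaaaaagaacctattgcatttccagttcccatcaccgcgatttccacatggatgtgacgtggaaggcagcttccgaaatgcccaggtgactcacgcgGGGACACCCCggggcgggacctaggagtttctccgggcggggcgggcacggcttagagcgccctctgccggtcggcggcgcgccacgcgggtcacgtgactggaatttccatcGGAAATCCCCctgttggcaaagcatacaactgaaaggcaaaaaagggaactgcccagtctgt
Cxcl10 (chr5:92348840-92349139, minus strand): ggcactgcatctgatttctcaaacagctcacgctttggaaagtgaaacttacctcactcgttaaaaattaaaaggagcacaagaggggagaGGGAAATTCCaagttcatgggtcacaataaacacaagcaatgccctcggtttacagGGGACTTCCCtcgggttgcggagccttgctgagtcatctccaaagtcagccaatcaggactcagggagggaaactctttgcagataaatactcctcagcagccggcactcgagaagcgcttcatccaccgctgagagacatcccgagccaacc
Cxcl1 (chr5:90890995-90891294, plus strand): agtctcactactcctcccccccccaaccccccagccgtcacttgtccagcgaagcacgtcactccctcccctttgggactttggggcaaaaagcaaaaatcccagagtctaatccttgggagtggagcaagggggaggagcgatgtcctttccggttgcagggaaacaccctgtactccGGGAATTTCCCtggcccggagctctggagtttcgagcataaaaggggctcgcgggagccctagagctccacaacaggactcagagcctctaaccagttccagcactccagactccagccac
Nfkbia (chr12:55492598-55492897, minus strand): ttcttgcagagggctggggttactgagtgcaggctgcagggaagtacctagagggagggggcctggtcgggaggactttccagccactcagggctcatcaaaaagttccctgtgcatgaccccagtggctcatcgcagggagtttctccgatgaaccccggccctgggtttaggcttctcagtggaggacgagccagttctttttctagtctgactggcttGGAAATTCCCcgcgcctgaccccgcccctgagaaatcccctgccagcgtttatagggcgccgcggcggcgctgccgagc

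In Cxcl2 and Cxcl1 the capitals are a single run in which a pair of matches overlap, while Cxcl10 and Tnfaip3 hold 2 runs each and Nfkbia holds 1. The first match began 97 bases before the start in Cxcl2, 71 in Cxcl1, 159 in Cxcl10, 125 in Tnfaip3 and 29 in Nfkbia. Cxcl1 and Cxcl2 carry the same run of letters. Of the 22 phase 2 transferase genes with a window, 0 held the NF-kappaB motif, and 3 held the antioxidant response element TGACNNNGC, which 12.4% of all windows hold. A match of letters is a description of the window and not evidence of binding.

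Neutrophil markers were lower in knockout replicates 1 and 2 alone, alongside the NF-kappaB targets. Of 13 markers on the array, 4 were tested, and all 4 had negative differences with a median of -2.99. The groups overlapped for all 4, while 15.1% of all probe sets were separated. In replicates 1 and 2, 4 of 4 lay below the control range, against 21.4% and 28.4% of all probe sets. In replicate 3, 0 of 4 did, against 28.6%. S100a9, a calcium-binding protein of neutrophils, read 9.51, 10.74 and 8.84 in the controls and 7.27, 3.06 and 9.49 in the knockouts. The summed level of the 13 markers was 12.06 to 12.97 on the log2 scale in the controls. It was 9.36, 6.43 and 12.85 in knockout replicates 1 to 3, the same order as in the NF-kappaB list. The lowest difference of the neutrophil list, -3.59, was also the lowest of the acute phase list, from a member that both share. The sum is therefore not specific to neutrophils. The granule genes Mpo, Elane, Camp and Ltf were at background, 2.54 or below, on all 6 arrays. The part of neutrophils in the chemokine differences was not tested. Markers of Kupffer cells and macrophages differed between the knockout arrays. Of 18 tested, 14 had a negative difference and 1 was separated, against 15.1% of all probe sets. In replicate 2, 13 of 18 lay below the control range, against 28.4% of all probe sets, and in replicate 1, 10 of 18 lay above it, against 35.4%. Cd14, a lipopolysaccharide co-receptor, read 8.26, 8.16 and 7.14 in the controls and 5.38, 2.36 and 8.72 in the knockouts. The summed level of the list was 12.35 to 12.74 in the controls and 12.70, 12.20 and 12.50 in the knockouts. That separated marker was the scavenger receptor gene Marco, at 6.07, 6.62 and 6.14 against 5.76, 3.23 and 5.52.

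Immediate early genes, the transcription factors and growth regulators that growth factors induce within minutes, were lower as a group. Of 21 tested, 19 had a negative difference, with a median of -1.05. On all 3 knockout arrays 8 were lower and 0 were higher, against 6.22% and 8.92% of all probe sets. The median distance from the control mean was -0.88, -1.92 and -0.43 in knockout replicates 1 to 3, so that replicate 3 was the closest here too but was not at the control level. The count was also 8 without replicate 2, against 9.77% of all probe sets, and 14 without replicate 3, against 15.2%. It was 15 without control replicate 1, against 11.7%. Atf3, a stress-induced factor of the ATF family, read 5.31, 6.36 and 5.64 in the controls and 3.34, 3.06 and 4.57 in the knockouts, a difference of -2.11 (SE 0.46). Btg2, an antiproliferative gene, read 8.37, 9.15 and 8.54 against 5.91, 4.65 and 7.34, a difference of -2.72 (SE 0.66). In both genes the highest knockout was clearly below the lowest control.

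The AP-1 subunit genes differed less. Jun read 7.69, 8.75 and 8.72 in the controls and 7.34, 7.23 and 6.77 in the knockouts, a difference of -1.27 (SE 0.33), and here replicate 3 was the lowest of the knockouts. Junb read 8.24, 8.60 and 8.64 against 7.59, 6.29 and 7.81, and Fosl2 read 4.11, 4.2 and 4.53 against 3.40, 2.92 and 3.86. The zinc finger gene Egr1, a classical ERK target, read 7.63, 8.35 and 8.59 against 7.32, 5.77 and 7.34. Klf6 and Maff completed the 8, with differences of -1.71 (SE 0.39) and -1.76 (SE 0.52). Klf6 and Fosl2 had all control values above 4 and all knockout values under it. Both thus passed the filter through the controls alone, which fixed them as lower. Other early genes did not separate the groups: Dusp1, a phosphatase of MAP kinases, differed by -0.02 (SE 0.39) and Mcl1, a survival gene, by -0.03 (SE 0.11). Klf10 went the other way, by 0.76 (SE 0.49). Of the ERK feedback genes 4 were tested, and 1, Phlda1, was lower on all 3 knockout arrays, against 6.22% of all probe sets. It read 10.34, 11.51 and 11.06 in the controls and 10.34, 9.83 and 9.95 in the knockouts. Its highest knockout was almost level with its lowest control.

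Without HGF, immediate early genes had mostly positive differences. Of 14 tested there, 12 had a positive difference, with a median of 1.02, and 7 were higher on all 3 knockout arrays, against 6.43% of all probe sets. Without the array labelled knockout replicate 2, the median was 0.42, with 11 positive, 9 higher and 1 lower, against 21.8% and 22.0% of all probe sets. That array was the highest for Btg2, at 4.58, 8.09 and 4.59 in the knockouts without HGF. The difference between the 2 contrasts had a median of -1.49 over 22 genes. It had an unadjusted p under 0.05 for 14 of them and an adjusted p under 0.05 for 0 by limma, the smallest being 0.211. Plk3, a stress kinase, shows both sets: its mean was 3.81 in controls and 7.19 in knockouts without HGF, and 7.69 and 6.73 after it. Without replicate 2 its differences were 3.13 and -0.29.

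Acute phase genes, which hepatocytes induce on cytokine signals, followed the NF-kappaB list with smaller differences. Of 25 tested, 24 had a negative difference and 5 were lower on all 3 knockout arrays, against 6.22% of all probe sets. The median was -0.64. The distance from the control mean was -0.41, -1.38 and 0.12 in knockout replicates 1 to 3, and 25 of 25 genes were below the control range in replicate 2, against 28.4% of all probe sets. In replicate 3, 6 of 25 were below it (28.6% of all) and 9 of 25 above it (21%). Without replicate 2 the median was -0.19. Saa2, a serum amyloid gene, read 12.98, 12.03 and 12.45 in the controls and 10.95, 5.66 and 12.78 in the knockouts, so that replicate 2 alone was below 10. Orm2, an orosomucoid, read 11.42, 10.60 and 10.55 against 8.92, 5.66 and 9.92, a difference of -2.69 (SE 1.07), and was lower on every knockout array. Abundant members differed little: haptoglobin (Hp) by -0.29 (SE 0.14) and the fibrinogen chain gene Fgb by -0.18 (SE 0.15), both with no overlap, and Fga by 0.01 (SE 0.14).

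Interferon targets divided the knockout arrays in the same way. Of 20 tested, 19 had a negative difference and 7 were lower on all 3 knockout arrays, against 6.22% of all probe sets. The median was -0.88, with array medians of -1.27, -1.50 and 0.04. The count was 7 without replicate 2 (9.77% of all probe sets) and 18 without replicate 3 (15.2%). Irf8, a transcription factor of myeloid cells, was the most even of them, at 5.98, 6.47 and 5.64 in the controls and 3.48, 3.28 and 4.80 in the knockouts, a difference of -2.18 (SE 0.44). Rsad2, an antiviral enzyme, read 6.61, 6.97 and 6.79 against 4.65, 4.44 and 6.05, and Irf1 read 10.53, 11.47 and 10.82 against 8.27, 7.54 and 10.50. The metallothionein genes Mt1 and Mt2, whose proteins bind zinc, did not separate the groups after HGF. Mt2 read 12.83, 12.49 and 12.42 in the controls and 11.50, 5.87 and 12.75 in the knockouts, a difference of -2.54 (SE 1.71), with replicate 2 far below the rest and replicate 3 inside the control range. Without replicate 2 the difference of Mt2 was -0.46. In the animals without HGF, Mt1 and Mt2 were higher on all 3 knockout arrays, by 4.42 and 5.30. With replicate 2 of that set left out, these differences were 3.21 and 3.61.

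**Figure D4:**
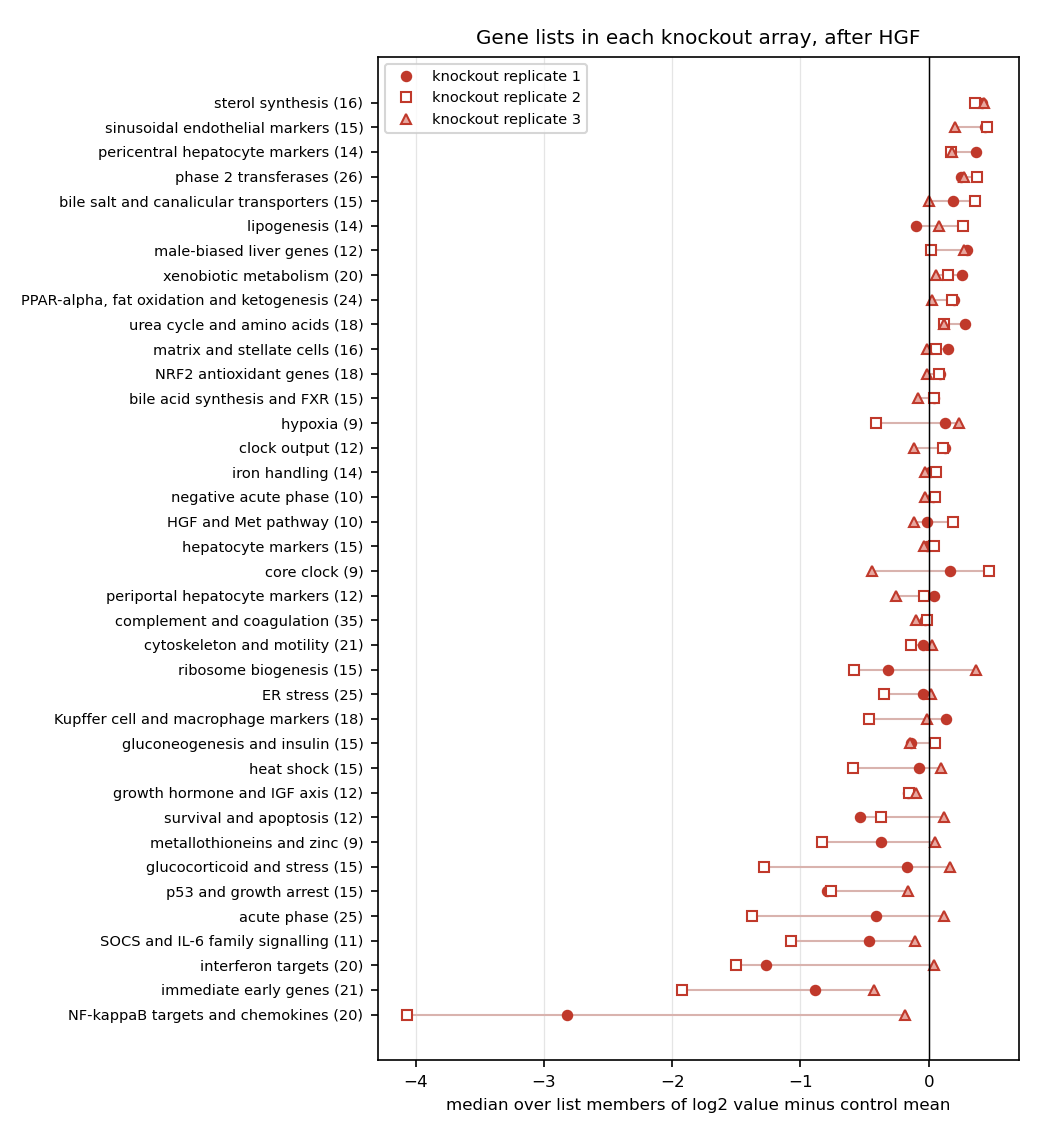
Median over the members of each gene list of the log2 value minus the control mean, in knockout replicates 1, 2 and 3 after HGF, for lists with at least 9 tested genes (number in brackets). Phase 2 transferases sit at 0.25 to 0.38 in all 3 arrays, while NF-kappaB targets run from -4.07 in replicate 2 to -0.19 in replicate 3.

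Several genes outside these lists were lower in all 3 knockout livers with little spread among them. Fst, which encodes the activin antagonist follistatin, read 4.22, 7.41 and 6.5 in the controls and 2.94, 3.14 and 2.60 in the knockouts. All 3 knockouts were at background, the controls spread over 3.19 log2 units, and the difference was -3.15 (SE 0.78, limma adjusted p = 0.570). L3hypdh, a hydroxyproline dehydratase, read 5.83, 6.22 and 6.29 against 4.88, 5.10 and 5.09, a difference of -1.09 (SE 0.16). Serpina11, a member of the serpin family, read 10.13, 9.98 and 9.88 against 8.98, 9.08 and 9.40, a difference of -0.85 (SE 0.15). Both L3hypdh and Serpina11 were also lower without HGF, by -1.26 and -1.23, with no overlap there either. Brd2, a bromodomain protein that reads acetylated histones, differed by -0.90 (SE 0.16) and Wwtr1, the Hippo effector TAZ, by -0.80 (SE 0.19). Wwtr1 was 1 of 3 Hippo pathway genes of 6 tested that were lower on all 3 knockout arrays, against 6.22% of all probe sets. The others were Sav1 and Yap1, and all 6 had negative differences. Without HGF, Wwtr1 went the other way, by 1.01, with no overlap, and by 1.09 without replicate 2.

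Some genes with a higher mean in the knockouts had large but uneven differences. G0s2, an inhibitor of adipose triglyceride lipase, read 4.10, 2.32 and 3.04 in the controls and 9.57, 8.75 and 4.26 in the knockouts. Ppp1r3c, which targets protein phosphatase 1 to glycogen, read 4.53, 3.99 and 4.98 against 8.61, 8.89 and 5.62. In both genes replicate 3 exceeded the highest control by less than 1 log2 unit, and the differences of 4.38 (SE 1.40) and 3.21 (SE 0.88) came mainly from replicates 1 and 2. G6pc, the last enzyme of gluconeogenesis, read 5.44, 6.37 and 8.45 against 9.63, 8.71 and 8.85, with a difference of 2.31 (SE 0.76). Without HGF the differences of G0s2, Ppp1r3c and G6pc were -2.11, -2.15 and -2.17, with controls without HGF at means of 9.05, 9.25 and 10.40. Without the array labelled knockout replicate 2 in that set they were -0.48, -0.96 and -1.58. The list of gluconeogenesis and insulin genes, which holds Ppp1r3c and G6pc, had a median of -0.15 after HGF. Of its 15 tested genes, 2 were higher and 3 lower on all 3 arrays, against 8.92% and 6.22% of all probe sets. Txnip, an inhibitor of thioredoxin, and Mcm10, a replication factor, were more even. Txnip read 7.11, 6.74 and 7.65 against 8.75, 9.13 and 8.57, and Mcm10 read 5.78, 6.61 and 6.5 against 7.77, 8.32 and 7.68. Their differences were 1.65 (SE 0.27) and 1.63 (SE 0.28).

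Sinusoidal endothelial markers were mostly higher. Of 15 tested, 14 had a positive difference, 6 were higher on all 3 knockout arrays and 1 was lower, against 8.92% and 6.22% of all probe sets, with a median of 0.37. Bmp2, a ligand by which endothelium drives hepcidin in hepatocytes, read 6.03, 6.15 and 6.16 in the controls and 7.08, 7.06 and 6.56 in the knockouts, a difference of 0.79 (SE 0.17). Clec4g, a lectin of sinusoidal endothelium, differed by 0.49 (SE 0.13) and the Fc receptor gene Fcgr2b by 0.71 (SE 0.19). The lower one was Lyve1, a hyaluronan receptor, at 7.17, 5.71 and 5.94 against 3.0, 3.44 and 5.51. The summed level of the 23 markers on the array was 11.06 to 11.11 in the controls and 11.56, 11.46 and 11.24 in the knockouts. Pecam1 overlapped, and Cdh5, another pan-endothelial gene, was below the filter. Without knockout replicate 2, 6 were higher and 1 was lower, against 12.6% and 9.77% of all probe sets, with a median of 0.29. Without HGF, 0 of 14 tested markers were higher and 1 was lower, against 6.43% and 12.5%, with a median of -0.05. The difference between the 2 contrasts had an adjusted p under 0.05 for 0 of 15 genes by limma.

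Across both sets of animals the 2 knockout contrasts shared few calls: Rad51b was the only gene called in both. Of 6356 probe sets tested without HGF, 9 were called, and apart from Rad51b these were Sowahb, Nnt, Cda, Rgs16, S100a6, Meg3, Slc1a2 and Nrg4. After HGF, Sowahb was at 4.49, 4.55 and 5.43 in the controls and 6.59, 5.34 and 4.42 in the knockouts, so that its groups overlapped, while without HGF it was lower by -2.01. Nnt, the mitochondrial transhydrogenase, read 9.88, 8.60 and 9.26 against 8.10, 8.13 and 8.93 after HGF, a difference of -0.86 (SE 0.38), and differed by -1.39 (SE 0.10) without it. Of the 961 probe sets separated after HGF, 918 were tested in both sets. Of these, 486 had the same sign without HGF, and 76 were separated in the same direction there. For the difference between the 2 contrasts, 0 of 6683 probe sets were called by limma, with a smallest adjusted p of 0.211 and 724 at an unadjusted p under 0.05. No difference described above was thus shown to depend on HGF.

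**Figure D5:**
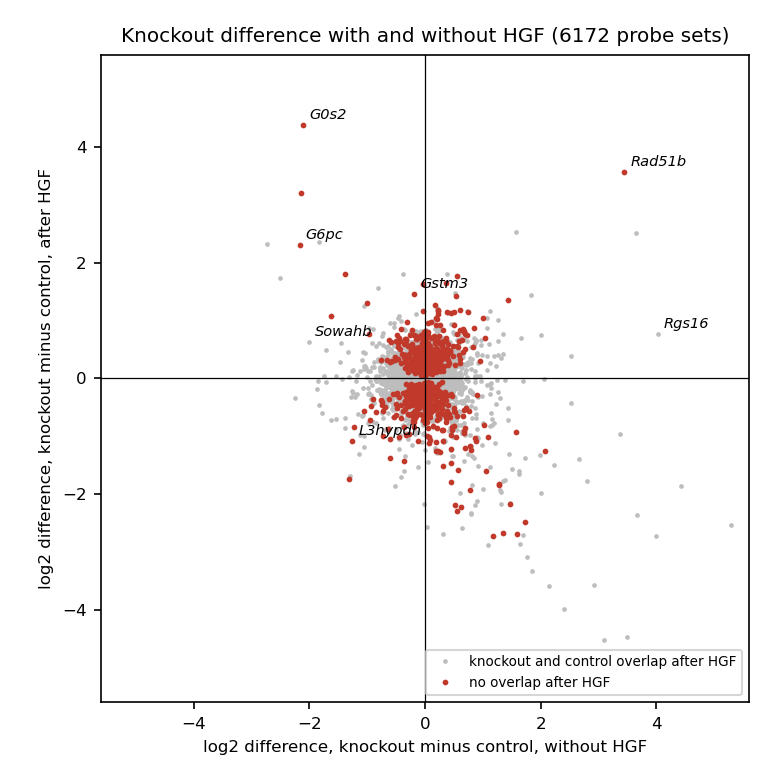
Difference between knockout and control on the log2 scale without HGF (x axis) and after HGF (y axis), for 6172 probe sets tested in both sets of animals, with probe sets whose groups did not overlap after HGF in red. Rad51b stands alone at 3.45 and 3.57, while G0s2 lies at -2.11 and 4.38.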

How the data were processed

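Liver RNA was hybridised to Affymetrix arrays, with 3 animals per group, per the labels' protocols. The deposited values are linear probe set intensities that the authors computed with GCRMA (named in the submitters' processing notes, without a version). GCRMA brings arrays to a common distribution and compresses signals near background. Platform annotation gave 1 symbol for 15780 of 16475 probe sets that are not array controls and none for 695. RefSeq (GRCm38.p6) supplied current names, gene order and promoter windows.

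Intensities were put on the scale log2(intensity + 1), which understates differences near background. Probe sets at 4 or above on at least 3 of the 6 arrays were fitted with limma 3.58.1 (R 4.3.3), with 2 group means, 4 residual degrees of freedom, two-sided tests and Benjamini-Hochberg adjustment over all tested probe sets. A gene was called at an adjusted p under 0.05. The 6 arrays without HGF were fitted alike, and the difference of the contrasts with 4 group means over all 12 arrays. The median SE was 0.17, and the number of arrays limits precision. An exact permutation test of 3 against 3 cannot go below p = 0.10. The fit was tested on simulated data.

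Named genes were Met and Hgf, called genes and the smallest p, the largest separated differences, the widest ranges, and list members chosen by size, abundance or list. Genes outside this rule, chosen after their values were seen, are Exd2, Gsta4, Gstm1, Gstm2, Gstm6, Nfe2l2, Rsad2, the Ugt genes, H2-Aa, H2-Ab1, Cd74 and those called without HGF other than Rad51b and Slc1a2. The comparison, the lists and the motifs were chosen with earlier results of these data known. Alternatives covered the filter, pseudocount, normalization, variance model, array weights, replicate block and single arrays left out.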

Additional observations from a re-analysis of the deposited data

How the results depend on the processing

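The call of Rad51b held in 14 of 17 alternatives, with adjusted p from 0.000185 to 0.115 and differences from 2.24 (pseudocount 16) to 3.70. It was the only call with no filter, a filter at 6, the larger pseudocount, quantile normalization, centring, the 12-array fit, the trend, the random block and treat. The number of genes called after HGF was 54 with array weights, whose fit stopped before it converged, and 0 to 90 with single arrays left out: 0 without control replicate 3 or knockout replicate 1, and 90 without knockout replicate 3. With the replicate number as a fixed block, 0 genes were called after HGF (345 at an unadjusted p under 0.05) and 0 without HGF (644). Deviations of same-numbered control and knockout arrays from their group means correlated at -0.06, -0.10 and -0.41 after HGF. Those of arrays with different numbers correlated at -0.18 to 0.35. With deviations from means of 3 arrays, these values cannot settle whether the numbers mark a pairing. Without HGF, 9 calls became 2 with no filter, 4 with pseudocount 16, and 0 to 373 with single arrays left out, the highest without knockout replicate 2. The difference between the contrasts had 0 or 1 calls with single arrays left out, Bach1 without knockout replicate 3 after HGF and Csrp2 without knockout replicate 1 in the other set, and 0 under the replicate block. Values without the array labelled knockout replicate 2 in the set without HGF were chosen after seeing the data. The causes were not tested. Signs were kept in 5583 of 5759 alternative values of 343 named genes and in 774 of 816 list medians. The sterol synthesis median went from 0.39 to -0.12 without control replicate 1. Values near background limit the folds of Cxcl2, Fst and Ccl3.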

Other observations

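MHC class II genes, which present antigen on macrophages, dendritic cells and B cells, were higher in all 3 knockout livers after HGF. They were on no list and were chosen after their values were seen. H2-Eb1 read 7.13, 6.58 and 6.81 in the controls and 8.29, 7.77 and 8.01 in the knockouts, a difference of 1.18 (SE 0.20). H2-Aa read 8.41, 7.58 and 7.63 against 9.21, 8.71 and 9.12, H2-Ab1 differed by 1.02 (SE 0.26), and Cd74, the invariant chain, by 0.72 (SE 0.19). In each of the 4 the lowest knockout lay above the highest control, and none was called by limma (adjusted p of 0.466 to 0.570). The immunoglobulin gene Ighm, at 3.58, 3.71 and 3.81 against 4.66, 4.75 and 4.49, was near background. The summed level of the Kupffer cell and macrophage markers was 12.35 to 12.74 in the controls and 12.20 to 12.70 in the knockouts, and its part in these differences was not tested.

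Clock genes differed between the knockout arrays and between controls. Dbp, an output factor of the clock, read 5.21, 2.61 and 3.55 in the controls and 5.09, 11.05 and 2.81 in the knockouts, so that replicate 2 alone was high. Its difference was 2.53, and 0.16 without replicate 2. Nr1d1, a repressor of the core loop, read 4.5, 4.26 and 5.48 against 6.88, 7.36 and 5.42, and Arntl read 5.38, 5.38 and 5.29 against 5.66, 2.82 and 5.41. Cry2 was the only 1 of 9 core clock genes whose groups did not overlap, against 15.1% of all probe sets. It read 4.5, 4.73 and 4.95 in the controls and 5.71, 6.99 and 5.27 in the knockouts. The labels give no time of day.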
